A study of Mus musculus with 23 samples.

Results

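The 9 genes described here are Plch2, Cd109, Mgarp, Myom2, Tmem45a, Rnf183, Sntg2, Gnaz and Wwtr1, a set named for being switched on in B cell lymphoma lines. They are 9 of the 13743 genes that could be tested on these arrays and were chosen by the log2 difference between lines and spleens, as genes far higher in the lines. Against Atm knockout spleens they held ranks 1 to 6 and 12 to 14 of all tested genes by log2 difference. That contrast chose them, so their levels in lines and spleens are given as a description, with no test. RNA of 22 mouse samples had been hybridised to 23 one-colour Agilent arrays. The lymphoma group had 9 cell lines of ATMKO.CD3eKO mice, which lack both Atm, a kinase of the DNA damage response, and Cd3e, part of the T cell receptor complex. Each line had been derived from spleen cells of a tumour-bearing mouse and was kept in suspension in RPMI1640 medium with 10% FBS. The controls were whole spleens without tumour from 6 ATMKO.CD3eKO mice (KO spleens, all female) and from 7 ATMWT.CD3eKO mice (WT spleens, 4 male and 3 female). Every mouse thus lacked Cd3e, all were of the C57BL/6 x 129 background, and ages are not given in the sources used here. The comparison sets cultured B lymphoma cells beside a tissue of many cell types, and in bulk RNA fewer cells of a type and less RNA per cell cannot be told apart.

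The 9 genes do not belong to one pathway. Plch2 encodes a phospholipase C, an enzyme that splits a membrane phosphoinositide into messengers that release calcium and activate protein kinase C, and Gnaz encodes the alpha subunit of a heterotrimeric G protein that inhibits adenylyl cyclase. Both are best known from neurons, and Gnaz also from platelets. Wwtr1, also called TAZ, is a transcriptional coactivator that the kinases of the Hippo pathway hold back and that works through TEAD factors, and Cd109 is a surface protein of the alpha-2-macroglobulin family that dampens TGF-beta signalling. Myom2 is a structural protein of the M-band of striated muscle, Sntg2 a syntrophin that links membrane proteins to dystrophin, Mgarp a mitochondrial protein tied to the transport of mitochondria, Rnf183 a membrane-bound RING ubiquitin ligase and Tmem45a a protein with several membrane spans.

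RefSeq start sites on GRCm38.p6 were on hand for 6 of the 9 genes; Cd109, Myom2 and Gnaz were not matched. The 250 bases upstream of the start are shown for 5 of them. These are the gene with the largest rise by its brightest probe (Plch2) and the genes whose levels ran most closely together across the lines (Mgarp and Tmem45a). The others hold an AP-1 or TEAD sequence (Rnf183 and Wwtr1). The windows are chr4:155019429-155019678 for Plch2, chr3:51396548-51396797 for Mgarp, chr16:56886164-56886413 for Tmem45a, chr4:62434641-62434890 for Rnf183 and chr3:57575911-57576160 for Wwtr1, all on the minus strand and written 5′ to 3′ along the gene. Capitals mark matches to the motifs searched.
Plch2: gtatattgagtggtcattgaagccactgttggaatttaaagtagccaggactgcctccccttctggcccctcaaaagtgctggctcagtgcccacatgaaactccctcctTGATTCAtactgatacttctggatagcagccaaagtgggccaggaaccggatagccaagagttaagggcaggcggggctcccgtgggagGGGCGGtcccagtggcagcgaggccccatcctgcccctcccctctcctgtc
Mgarp: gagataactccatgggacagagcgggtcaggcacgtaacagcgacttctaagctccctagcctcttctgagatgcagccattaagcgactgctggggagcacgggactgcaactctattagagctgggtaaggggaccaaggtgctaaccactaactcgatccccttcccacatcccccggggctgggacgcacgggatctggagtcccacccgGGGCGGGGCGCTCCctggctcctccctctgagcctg
Tmem45a: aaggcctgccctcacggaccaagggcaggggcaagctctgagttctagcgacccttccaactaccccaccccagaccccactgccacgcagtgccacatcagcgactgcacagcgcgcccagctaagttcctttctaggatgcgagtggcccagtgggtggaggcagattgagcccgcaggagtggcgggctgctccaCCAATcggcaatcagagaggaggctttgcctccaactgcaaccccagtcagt
Rnf183: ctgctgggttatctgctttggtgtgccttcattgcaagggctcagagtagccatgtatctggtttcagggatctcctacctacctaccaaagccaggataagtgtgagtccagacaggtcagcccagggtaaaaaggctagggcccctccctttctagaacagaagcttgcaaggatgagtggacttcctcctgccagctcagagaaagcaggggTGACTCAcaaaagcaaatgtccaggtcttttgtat
Wwtr1: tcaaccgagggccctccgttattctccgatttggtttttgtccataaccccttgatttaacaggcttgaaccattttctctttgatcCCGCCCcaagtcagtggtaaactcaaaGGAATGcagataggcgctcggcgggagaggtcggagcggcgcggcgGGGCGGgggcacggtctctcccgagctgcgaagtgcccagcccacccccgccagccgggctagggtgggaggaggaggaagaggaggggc

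These windows shared few of the searched sequences. Matches on either strand were counted in the 10 windows of the 6 genes and in all 32851 windows of the same length. A gene is named if any of its windows matched, whereas the percentages are per single window, so they are not directly comparable. The AP-1 sequence TGANTCA stood in a window of Plch2 and of Rnf183, and 6.75% of all windows hold it. The TEAD sequence GGAATG was found in Wwtr1 alone among the 6 genes, against 12.6% of all windows. The GC box GGGCGG occurred in Plch2, Mgarp, Sntg2 and Wwtr1 (32.7% of all windows), CCAAT in Plch2 and Tmem45a (33.8%), and the NF-kB site in Mgarp, where it overlaps the GC box, and in a further Plch2 window (7.25%). None of the 6 genes had the octamer ATGCAAAT (1.6% of all windows), the ATF4 sequence TGATGNAAT (0.816%), the E-box CACGTG (6.02%) or the CRE TGACGTCA (1.55%). Mgarp and Tmem45a had no searched motif in common in these windows. A match is a description of the letters and says nothing of binding.

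All levels below are log2 values after division by the array's own 75th percentile, so a level of 0 is as bright as that percentile. The scanner's own test says whether a spot is well above background. The 75th percentile was 491 to 788 intensity units in the lines, 668 to 896 in KO spleens and 570 to 832 in WT spleens, and 54.9% to 67.7% of spots per array were well above background. Atm was -4.38 to -2.77 in the lines, -2.69 to -2.07 in KO spleens and -0.67 to 0.00 in WT spleens, in the order of the labels, while Cd3e was -4.65 to -3.86 in spleens and -3.30 to -1.22 in the lines. The deleted part of either gene is not given in the sources used here, so these probes do not show genotype. All 9 measured B cell markers were well above background in all 9 lines. The summed level of 6 macrophage markers was 0.232 to 17.3 times the 75th percentile in the lines and 36.9 to 67.8 in KO spleens, and for 5 neutrophil markers it was 0.0122 to 1.42 against 230.9 to 696.

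The lines are numbered 1 to 9, and some of them need care. Line 8 has 2 arrays with the same number in their titles, 1 of them marked as a repeat, whereas the series' design text counts 10 lines. Among 20180 probes well above background on all 10 lymphoma arrays, 9.30% differed over 2-fold between these 2 arrays. For the 44 pairs of arrays from different lines that share ran from 2.85% to 21.6%, with a median of 12.8%, and 5 of those pairs were closer than the arrays of line 8. The closest pair of all was lines 4 and 5, on the same slide, at 2.85%, followed by lines 1 and 7 at 6.59%. The deviations of lines 4 and 5 from the mean of all lymphoma arrays correlated across probes with r = 0.72, against 0.06 for lines 1 and 7. For the 2 arrays of line 8 this r was 0.18, below the 0.22 of lines 6 and 7. Whether lines 4 and 5 share an origin was not tested, so the 9 lines are separate by their titles only. With them averaged as 1 line, the differences from KO spleens given below were 11.50 for Plch2, 8.41 for Tmem45a, 7.89 for Sntg2 and 10.11 for Mgarp, 7.54 for Gnaz, 8.75 for Rnf183, 7.47 for Wwtr1, 8.94 for Myom2 and 11.12 for Cd109. Sntg2 was -7.88, not well above background, on the first array of line 8 and 0.77 on the repeat, and Cd109 was 3.84 and 0.89. Whether the arrays came from the same cells was not tested. Line 8 is the mean of its arrays unless stated. Without line 8 the differences from KO spleens were 11.33 for Plch2, 11.15 for Cd109, 10.24 for Mgarp, 8.97 for Myom2, 9.05 for Tmem45a, 8.74 for Rnf183, 7.82 for Sntg2, 7.29 for Gnaz and 7.37 for Wwtr1.

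In every one of the 9 lines each of the 9 genes lay above all 6 KO spleens and above all 7 WT spleens, with line 8 averaged. Of all tested genes 24.1% were higher without overlap against KO spleens and 23.9% against WT spleens. Since the genes were chosen for this contrast, nothing is read from that count. The set was not off in all spleens. Plch2 was well above background in 13 of 13 spleens and Gnaz in 12, so for both the label describes a large rise from a measured level. Rnf183, Tmem45a and Sntg2 were well above background in 0 of 13 spleens, Mgarp in 1, Cd109 in 2, and Myom2 and Wwtr1 in 5 each. By the looser scanner test of a positive and significant signal, Mgarp and Tmem45a passed in 6 of 6 KO spleens and Rnf183 in 5, so a faint signal was recorded there. Among all tested genes 0.131% were well above background in all 9 lines and in none of the 13 spleens, and 0.233% in at least 8 lines and no spleen.

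**Figure D1:**
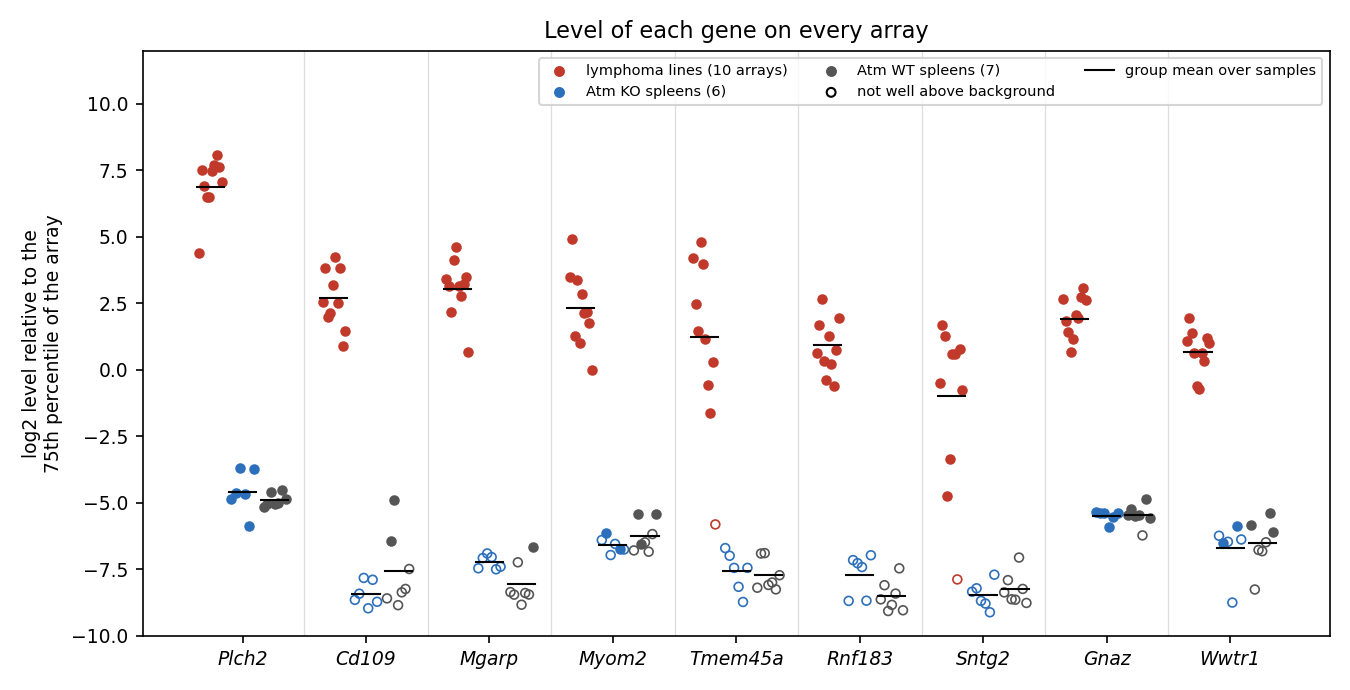
Log2 level of the 9 genes (main probe of each) on every array after division by its 75th percentile. Each point is an array, open points are not well above background, and bars are group means over samples with line 8 averaged; the open red points are Tmem45a in line 9 and Sntg2 on the first array of line 8.

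Plch2, the signalling enzyme, had the largest rise of all tested genes by its brightest probe. Its level was 4.39 at the lowest, 7.04 at the median and 7.86 at the highest of the 9 lines, -5.86, -4.66 and -3.71 in KO spleens, and -5.17, -5.00 and -4.52 in WT spleens. Line 1 stood lowest among the lines and the other 8 lay between 6.48 and 7.86. The difference from KO spleens was 11.45 ± 0.41 (SE; lines n = 9, spleens n = 6), or 2806-fold, and from WT spleens it was 11.77 ± 0.39, or 3490-fold. A second Plch2 probe was well above background in all 9 lines and in none of the spleens. It gave a difference of 8.70 from KO spleens and a bound of at least 101-fold. Cd109 and Mgarp came next in rank and were well above background in no KO spleen, so their order with Plch2 is uncertain.

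Gnaz, the inhibitory G protein subunit, was the most even of the set across the lines. It ran from 0.66 through a median of 1.95 to 2.90 in the lines, from -5.90 through -5.40 to -5.35 in KO spleens and from -6.23 through -5.47 to -4.88 in WT spleens. Line 4 was lowest and line 8 highest. The difference from KO spleens was 7.41 ± 0.28 (SE), or 171-fold, and from WT spleens 7.39 ± 0.27, or 168-fold, with 6 of 7 WT spleens well above background. The second Gnaz probe gave 8.14 and 7.83.

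Cd109, the TGF-beta antagonist of the cell surface, was well above background in all 9 lines. Its levels were 1.47, 2.50 and 4.25 (lowest, median, highest) in the lines, -8.97, -8.54 and -7.83 in KO spleens, and -8.85, -8.24 and -4.89 in WT spleens. Line 9 was lowest and line 6 highest, and the 2 WT spleens well above background, at -6.42 and -4.89, still lay below every line. Line 8, at 2.36, was the mean of arrays at 3.84 and 0.89, the repeat array lying below line 9. These arrays lay 2.94 apart, against at most 2.78 between any other lines. KO spleens were all below the limit, so the fold is a bound, set against the lowest signal well above background on each array. Cd109 was at least 673-fold higher than in KO spleens, with a fitted log2 difference of 11.11 ± 0.51 (SE). The other 2 probes of Cd109 passed the scanner's test in all lines and in 0 of 13 spleens, at least 94.2-fold and at least 4.91-fold higher than in KO spleens.

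Wwtr1, the Hippo coactivator, was well above background in all 9 lines. It ran from -0.71 through 0.76 to 1.93 in the lines, from -8.75 through -6.43 to -5.89 in KO spleens and from -8.26 through -6.49 to -5.39 in WT spleens. Lines 5 and 6, at -0.60 and -0.71, were the lowest and line 2 the highest. It was well above background in 2 of 6 KO and 3 of 7 WT spleens, and the fitted difference was 7.38 ± 0.47 (SE) from KO and 7.20 ± 0.45 from WT spleens. A second probe was below the limit in all KO spleens and at least 199.9-fold higher in lymphoma cells.

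Myom2, the M-band protein, varied over a wider range. Its levels were -0.00, 2.14 and 4.91 (lowest, median, highest) in the lines, -6.97, -6.64 and -6.13 in KO spleens, and -6.84, -6.49 and -5.41 in WT spleens. Line 9 was lowest and line 2 highest. With 2 of 6 KO and 3 of 7 WT spleens well above background, the fitted differences were 8.92 ± 0.52 and 8.57 ± 0.50 (SE).

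Sntg2, the syntrophin, split the lines. Lines 2, 3, 6 and 7 had 1.67, 1.28, 0.60 and 0.60, lines 1 and 9 had -0.50 and -0.77, and lines 5 and 4 had -3.35 and -4.76. Line 8 had -3.56 as a mean of an array at 0.77 and an array below the limit. KO spleens ran from -9.12 through -8.52 to -7.71 and WT spleens from -8.77 through -8.37 to -7.06, none of them well above background. With the array of line 8 below the limit taken at its recorded signal, Sntg2 was at least 52.8-fold higher than in KO spleens. A lower true level there would lower that bound. The fitted difference was 7.50 ± 0.79 (SE), and it was 7.82 without line 8. With the arrays of line 8 taken as separate lines the difference was 7.24, and the first array then overlapped both groups of spleens.

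Mgarp, the mitochondrial protein, was well above background in all lines and in 1 WT spleen. Its levels were 0.66, 3.16 and 4.61 (lowest, median, highest) in the lines, -7.50, -7.24 and -6.91 in KO spleens, and -8.84, -8.40 and -6.66 in WT spleens. Line 9 was 1.51 below the next line, and lines 5 and 4 were highest. Mgarp was at least 857-fold higher than in KO spleens, with a fitted difference of 10.28 ± 0.44 (SE).

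Tmem45a, the multi-span membrane protein, was well above background in 8 of the 9 lines. Lines 4, 1 and 5 had 4.81, 4.20 and 3.99, lines 2, 3 and 6 had 2.48, 1.47 and 1.15, and lines 7 and 8 had -0.57 and -0.67. Line 9 had -5.82 and passed only the looser scanner test, and it lay 0.89 above the highest KO spleen. KO spleens ran from -8.73 through -7.45 to -6.71 and WT spleens from -8.26 through -8.00 to -6.90. With line 9 taken at its recorded signal, the gene was at least 243-fold higher than in KO spleens. A lower true level in line 9 would lower that bound. The fitted difference was 8.81 ± 1.1 (SE), the least certain of the set.

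Rnf183, the ubiquitin ligase, was seen in all lines and in no spleen by the scanner's test. It ran from -0.38 through 0.61 to 2.67 in the lines, from -8.69 through -7.35 to -6.98 in KO spleens and from -9.07 through -8.63 to -7.47 in WT spleens. Line 5 was lowest, and lines 3 and 9 were highest. Rnf183 was at least 199-fold higher than in KO spleens and at least 177-fold higher than in WT spleens, with fitted differences of 8.64 ± 0.42 and 9.45 ± 0.40 (SE).

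Of the 6 slides used, 1 held lines 7, 8 and 9 only. Within each of the 5 slides that held both lines and KO spleens, the line mean was above the KO spleen mean for all 9 genes. Since the genes were chosen for this contrast, nothing is read from that. Most of these slides held 1 line array and 1 KO spleen, so the means there are single values. The range over slides was 9.25 to 13.33 for Plch2, 10.95 to 12.15 for Cd109, 3.65 to 10.12 for Sntg2 and 5.17 to 10.15 for Wwtr1. Tmem45a had 9.63 to 11.85 within slides, above its pooled 8.81, since the slide left out of this range holds the lines with the lowest levels of it.

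The genotype comparison asks whether loss of Atm alone, in spleens without tumour, was accompanied by a change in these genes. It was fitted on the 13 spleens with a term for sex and shares the KO spleens with the contrast that chose the set. None of the 9 genes was called (0 by limma with Benjamini-Hochberg adjustment, and 0 at an unadjusted p under 0.05). Of all tested genes 3.82% were called, a share so small that 0 of 9 is not informative, and nothing is read from that count. Differences of KO from WT spleens ran from -0.72 ± 0.61 (SE) for Wwtr1 to 0.61 ± 0.45 for Rnf183, with limma adjusted p from 0.419 to 0.903. Plch2 differed by 0.22 ± 0.38 and Gnaz by 0.06 ± 0.23. The genes that few spleens measured could be tested only because the lines measured them. For those genes these values compare signals near background, and a genotype difference was not detectable at these signals.

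Across the lines the 9 genes varied more than most genes. The SD over lines was 3.30 for Tmem45a, 2.34 for Sntg2, 1.49 for Myom2, 1.14 for Mgarp, 1.06 for Plch2, 1.0 for Rnf183, 0.90 for Cd109, 0.86 for Wwtr1 and 0.75 for Gnaz. Of 11502 genes well above background in at least 6 lines, the median SD was 0.38. Gnaz exceeded 83.4% of these genes and Tmem45a 99.8%. Line 9 was the low end of Tmem45a, and lines 4, 8 and 5 were the low end of Sntg2. Line 8 was low there only as the mean of arrays at -7.88 and 0.77. No line was low for the whole set. Line 9 was lowest for Cd109, Mgarp, Myom2 and Tmem45a, but second highest for Rnf183. Line 5 was lowest for Rnf183 and highest for Mgarp, and line 1 was lowest for Plch2 and second for Myom2, Gnaz and Tmem45a.

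**Figure D2:**
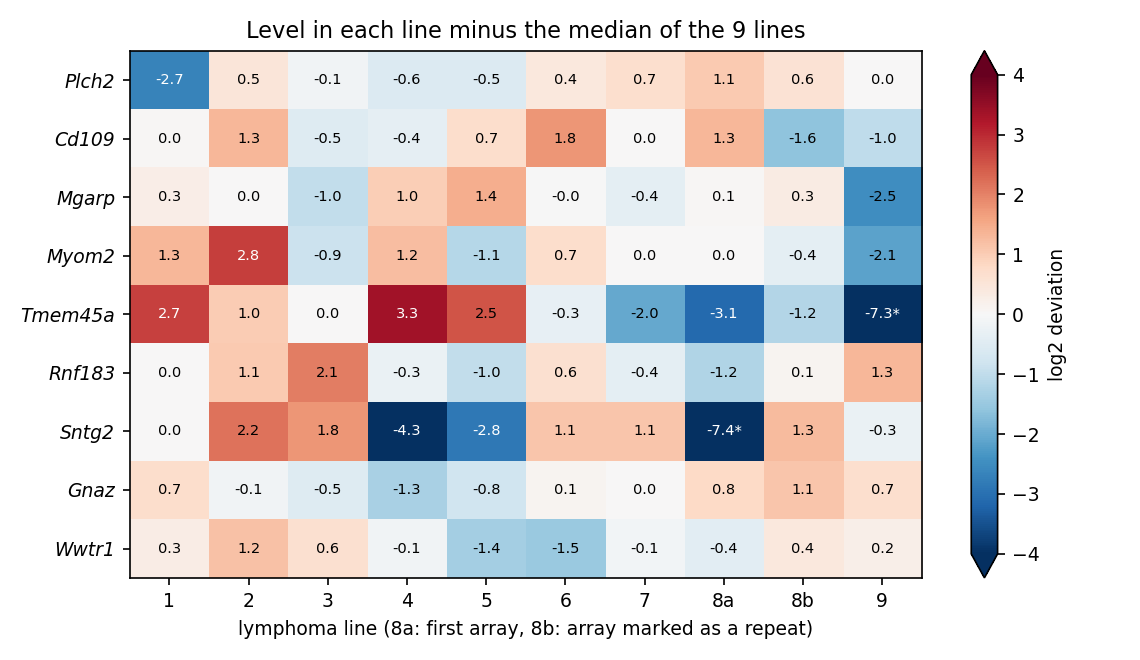
Level of each gene in each lymphoma line minus its median over the 9 lines (log2 scale, colours cut at 4 and -4), with the arrays of line 8 in columns of their own (8a the first array, 8b the array marked as a repeat). Stars mark arrays not well above background, which are Tmem45a in line 9 and Sntg2 on array 8a.

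The 36 pairs of genes were compared over the 9 lines to see which vary together. Mgarp and Tmem45a had the highest correlation, with Pearson's r = 0.86 (exact permutation p = 0.00526, adjusted 0.189) and Spearman's rho = 0.73 (exact p = 0.0311, adjusted 0.442). Both were highest in lines 4, 5 and 1 and lowest in line 9. Without lines 5 and 9, the lines farthest from the median of Mgarp, r was 0.56, so the relation rests in part on them. Without line 8 it was 0.91, with lines 4 and 5 averaged 0.85.

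Mgarp and Rnf183 ran opposite to each other, with r = -0.73 (exact permutation p = 0.0224, adjusted 0.403) and rho = -0.72 (exact p = 0.0369, adjusted 0.442), and r = -0.66 without lines 5 and 9. Rnf183 and Sntg2 ran together with r = 0.68 (exact permutation p = 0.0448, adjusted 0.538) and rho = 0.58 (exact p = 0.108, adjusted 0.531), and r = 0.73 without lines 3 and 9. Line 5 was lowest for Rnf183 and line 4 for Sntg2, and line 8 was the second lowest for both as a mean, with its repeat array at 0.74 and 0.77 above its first at -0.59 and -7.88. Plch2 and Tmem45a had the strongest rank correlation, with rho = -0.75 (exact p = 0.0255, adjusted 0.442), but r was -0.49 (exact permutation p = 0.175, adjusted 0.64). No pair passed after adjustment over the 36 pairs, and 3 pairs had an unadjusted p under 0.05 by r and 3 by rho. The value of r was above 0 for 19 pairs and below 0 for 17, with a median of 0.04. All tests were two-sided. With lines 4 and 5 averaged, the exact p was 0.0549 for Mgarp with Rnf183 and 0.0668 for Rnf183 with Sntg2.

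**Figure D3:**
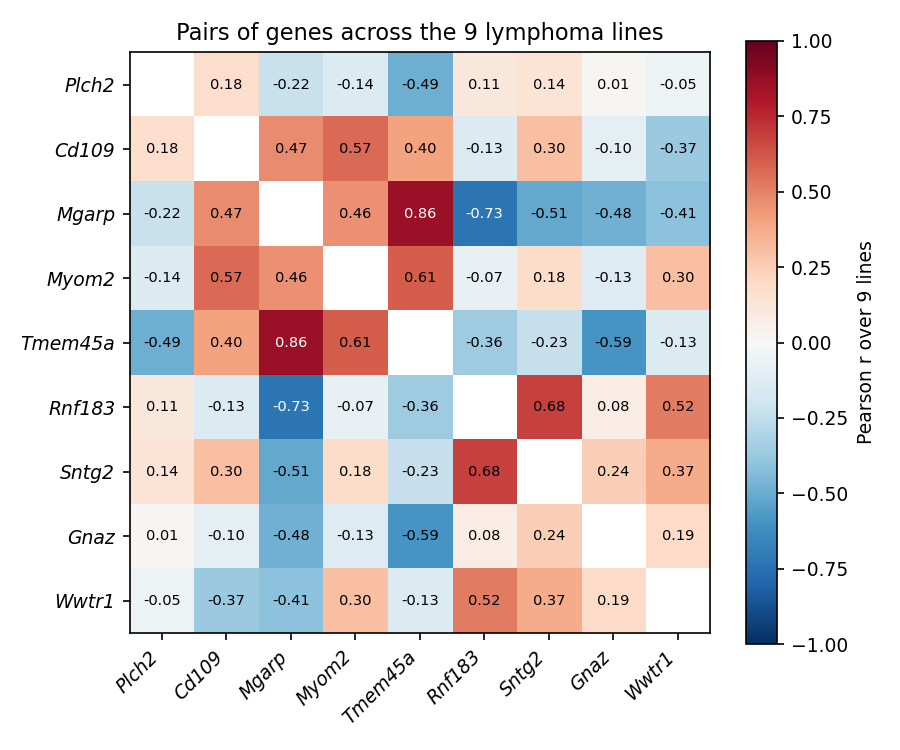
Pearson r of the log2 levels of each pair of genes over the 9 lymphoma lines, with line 8 as the mean of its arrays. The highest value is 0.86 for Mgarp and Tmem45a and the lowest -0.73 for Mgarp and Rnf183.

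**Figure D4:**
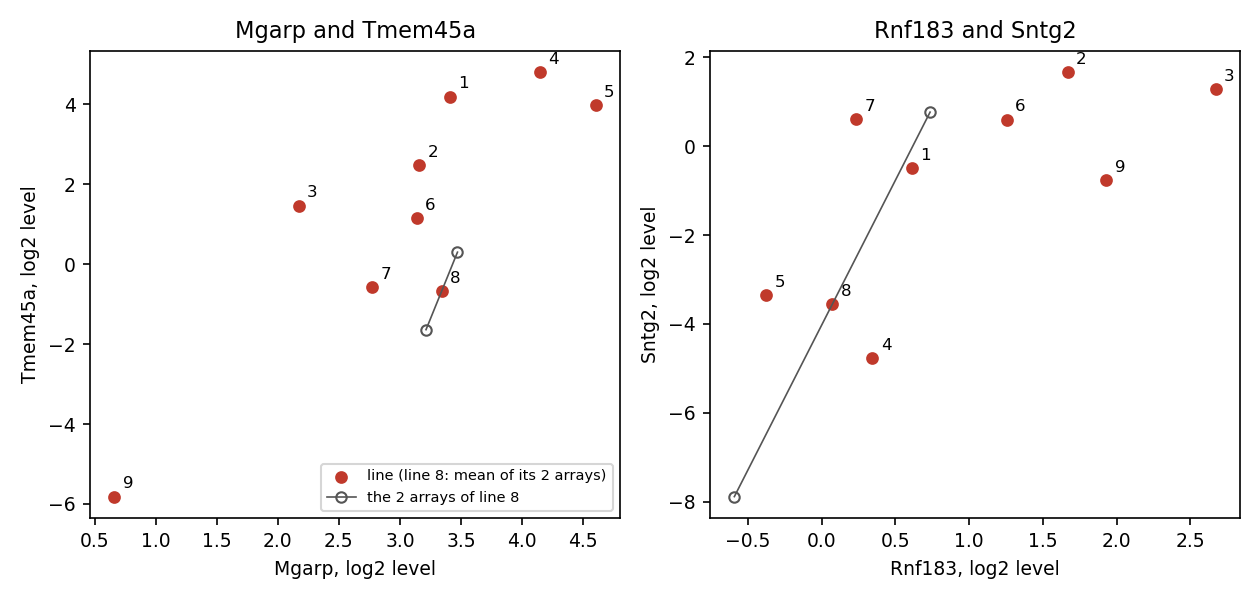
Log2 levels of Mgarp and Tmem45a (left) and of Rnf183 and Sntg2 (right) in the 9 numbered lines. Open circles joined by a line are the 2 arrays of line 8, which lie 8.65 apart for Sntg2; line 9 sits far from the other lines on the left.

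Other genes were ranked by how closely they followed each of the 9 over the lines, among 3657 genes with an SD of at least 0.5. These are the highest of many correlations over 9 points that share array and culture, so they are given as a description. Mgarp was followed most closely by Prpf40b, a splicing factor (r = 0.99), then by Gdpd3 (0.95) and Atp4a (0.95), the alpha subunit of the gastric proton pump. Tmem45a was followed by Guca1a (0.98), a guanylate cyclase activator of photoreceptors, the cytokine Il19 (0.96) and Acp6 (0.95). For Mgarp 27 genes and for Tmem45a 23 genes reached r = 0.9, against 0 to 6 for the other 7.

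The closest genes to the rest were Mid2 (r = 0.94), Bhlhe41 (0.89) and Mcub (0.88) for Plch2, and Fzd9, a Wnt receptor (0.91), Ubap2l (0.89) and Zfp664 (0.88) for Cd109. Myom2 was followed by Spaca9 (0.88), Chst11 (0.86) and Adm (0.85), and Rnf183 by Vsir, an immune checkpoint receptor (0.90), Elovl6 (0.87) and Dpy19l3 (0.86). Sntg2 was followed by the chemokine receptor Cxcr3 (0.94), the hormone precursor Pomc (0.94) and Basp1 (0.94). Gnaz was followed by Cptp (0.94) and Lrrc46 (0.93), and Wwtr1 by Atp2c2 (0.90), Osbpl5 (0.89) and Rgs12 (0.89). These followers went both ways against KO spleens. Mid2 had the largest rise in the lines, by 5.13 ± 0.33 (SE, limma adjusted p = 8.96e-12), and Il19 rose by 4.81 ± 0.54. Bhlhe41 had the largest fall, at -3.08 ± 0.44, and Pomc, Rgs12 and Osbpl5 were also called lower. Others were not called, among them Prpf40b (-0.08 ± 0.27) and Fzd9 (0.07 ± 0.33).

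The nearest tested genes on either side were taken from the order of the RefSeq gene table. Of 18 neighbours 12 were called higher in the lines than in KO spleens, 1 lower and 5 were not called, where 41.5% of all tested genes were called higher and 28.9% lower. Kbtbd11, next to Myom2, fell by 7.16 (SE 0.47, limma adjusted p = 1.1e-11), the opposite direction to Myom2. Wdr31, next to Rnf183, rose by 3.28 ± 0.33 (limma adjusted p = 1.51e-08), Tmem18, next to Sntg2, by 1.73 ± 0.12, and Rsph14, next to Gnaz, by 1.41 ± 0.24. Bcr on the other side of Gnaz (-0.17 ± 0.37), Pank4 and Pex10 beside Plch2 (0.11 ± 0.20 and 0.25 ± 0.26) and Tm4sf4 beside Wwtr1 (-0.26 ± 0.42) were not called. The other neighbours called higher rose by 0.47 to 1.26, and Slc17a5 beside Cd109, Mcph1 beside Myom2 and Commd2 beside Wwtr1 lost their call in 2 alternatives each.

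Close relatives of the set moved in different ways. Myom1, the other main M-band myomesin, rose by 4.70 ± 0.29 (limma adjusted p = 5.68e-12), from -3.85 ± 0.19 (SD, n = 6) in KO spleens to 0.85 ± 0.87 (SD, n = 9) in the lines, while Myom3 was not called (-0.75 ± 0.56). Gnat2, a transducin alpha subunit, rose by 2.14 ± 0.28, while the inhibitory subunits Gnai1, Gnai2 and Gnai3 were not called (-0.08 ± 0.15, 0.06 ± 0.14 and 0.13 ± 0.09, SE). Under median centring these 3 were called higher, and under quantile normalisation Gnai2 and Gnai3 were called lower. Among syntrophins Sntb2 fell by 1.28 (SE 0.14), and Sntb1 was not called (0.07 ± 0.22). Yap1, the relative of Wwtr1, passed the scanner's test in 0 of 9 lines, and so were Plch1, A2m, Pzp, Tmem45b, Tmem45a2, Rnf182, Rnf186 and Sntg1. Rnf152, Gnao1 and Gnat1 were so in 1 line each, and these 12 relatives were not tested.

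The wider pathways of the 9 genes were read from 8 lists with 172 tested genes, the 9 themselves left out. Of these 172 genes 51 (29.7%) were called higher than in KO spleens and 71 (41.3%) lower, against 41.5% and 28.9% of all tested genes, and their median log2 difference was -0.08 against 0.18 for all. Centring arrays on their medians moved the median of all genes to 0.83 and gave 88 higher genes.

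Of 27 genes of phosphoinositide turnover 5 were called higher and 10 lower (14 and 9 with median centring), with a median of 0.02, or -0.18 with quantile normalisation. Pip5k1c, a kinase that makes the substrate of Plch2, rose by 1.01 ± 0.16 (SE) and Itpka, which phosphorylates its product, by 0.74 ± 0.12. Against WT spleens Pip5k1c rose by 1.02 ± 0.15, whereas Itpka differed by 0.13 ± 0.11 and was not called (limma adjusted p = 0.312). Pip5k1b, with 2 of 9 lines above the limit, differed by -7.38 ± 0.34. Plcb2, a phospholipase C of blood cells, differed by -4.44 ± 1.02, with 7 of 9 lines above the limit, and passed the test.

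In the list of G protein subunits, RGS proteins and adenylyl cyclases 14 of 35 were called higher and 12 lower (11 and 15 with quantile normalisation), with a median of 0.13, or -0.11 with that scaling. Gng3, a gamma subunit best known from neurons, rose by 6.84 ± 0.56 (SE, limma adjusted p = 4.46e-10, 5 of 6 KO spleens well above background), from -5.94 ± 0.25 (SD, n = 6) to 0.91 ± 1.65 (SD, n = 9). Gng7, another gamma subunit, rose by 3.41 ± 0.42. Rgs1 and Rgs18, which speed the shut-off of G proteins, were lower, by -7.39 ± 0.73 with 8 of 9 lines well above background and by -6.81 ± 0.72 with 3 of 9. Rgs18 and Gnaz are both known from platelets. The megakaryocyte and platelet markers had 0 higher and 5 lower of 6 tested, with a summed level of 0.106 to 0.431 in the lines, 5.37 to 7.35 in KO spleens and 6.08 to 8.94 in WT spleens. Pf4, Ppbp and Gp9 were well above background in no line and Vwf in 1, whereas Itga2b and Gp1bb were so in all 9. Gp1bb was not called against KO spleens (-0.47 ± 0.44, limma adjusted p = 0.351). The part of platelets in the difference of Rgs18 was not tested.

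Of 19 Hippo pathway genes 6 were called higher and 9 lower (8 and 8 with median centring), with a median of -0.61, or -0.41 with genes below background in all lines at their bound and 0.05 with median centring. The Hippo kinase Stk3 rose by 2.19 ± 0.18 (SE) and its partner Sav1 by 0.87 ± 0.12. Wwc2, an upstream activator of the kinases, was at least 42.4-fold lower, and Axl, a receptor kinase and known TEAD target, at least 32.0-fold lower, with no line measuring either. Of further genes of the list, named here after their values were seen, Ccn2, a classical target of Wwtr1, was below the limit in all lines and at least 11.6-fold lower, and its relative Ccn1 was lower by a fitted -1.54 ± 0.30, with 4 of 9 lines above the limit. Amotl2 was well above background in every sample and was not called (-0.41 ± 0.22), and its relative Amotl1 was called higher (2.13 ± 0.47), measured in 6 of 9 lines and 0 of 13 spleens. Of the TEAD factors, also named after their values were seen, Tead2 rose by 0.75 ± 0.18 against KO spleens but differed by -0.06 ± 0.17 from WT spleens (limma adjusted p = 0.771), Tead1 was well above background in 3 of 9 lines and was not called, and Tead3 and Tead4 were so in 0 lines and not tested.

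In the TGF-beta list, which belongs to Cd109, 22 of 25 genes were called lower and 1 higher, with a median of -2.11, or -1.28 with genes below background in all lines at their bound. Between 18 and 22 were called lower in every alternative tried. Acvrl1, an endothelial receptor of the family, was at least 16.8-fold lower, and the complement protein C3 fell by 4.84 (SE 0.40). Smurf1, a ubiquitin ligase that degrades the receptors, rose by 0.50 ± 0.19 (limma adjusted p = 0.0202) but by -0.02 when all its probes were averaged. Markers of spleen stroma and endothelium moved with this list. Of 7 stromal markers 6 were lower, with a summed level of 0.0676 to 0.222 in the lines, 1.05 to 1.83 in KO and 1.34 to 2.71 in WT spleens, and of 6 endothelial markers 5 were lower and 1 higher. In the lines 4 stromal and 2 endothelial markers were well above background in none. Their part in the result was not tested.

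Of 25 sarcomere genes 7 were called higher and 10 lower (12 and 5 with median centring, 11 and 7 with quantile normalisation), with a median of -0.34, or 0.01 with genes below background in all lines at their bound. Myom1, above, and Neb, a giant thin filament protein, led the increases. Neb differed by 3.60 ± 0.42, and the samples that measured it were 8 of 9 lines, 1 of 6 KO and 0 of 7 WT spleens. Tpm2, a tropomyosin, and Tnni1, a slow-muscle troponin, were lower by fitted values of -4.01 ± 0.47 and -3.73 ± 0.46, well above background in 2 and 1 of 9 lines. Of 7 tested muscle markers 4 rose, namely Tnnt3 (2.51 ± 0.24), Ckm (1.67 ± 0.55), Tnni2 (1.47 ± 0.19) and Mylpf (1.05 ± 0.25), and Acta1 was lower (-1.05 ± 0.29). Against WT spleens 3 were called higher and 1 lower; Ckm, measured in 6 of 9 lines, 0 of 6 KO and 1 of 7 WT spleens, was not called there (1.17 ± 0.52, limma adjusted p = 0.0515). The summed level of these markers was 6.54 to 15.6 in the lines, 3.33 to 3.90 in KO and 3.28 to 4.83 in WT spleens. Myh4, Myl1 and Mb were well above background in no line, nor was the muscle regulator Myog. Of other muscle genes on the array that were not tested, Myh3 was well above background in 4 lines and Myh2 in 2, with 0 spleens each. Actn2, Myh8, Des and Myod1 were so in 1 line each, Des also in 1 WT spleen and Myod1 in 1 KO and 1 WT spleen.

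Of 11 genes of the dystrophin complex 3 were called higher and 5 lower, with a median of -0.22, or 0.43 with median centring. Sgcb, a sarcoglycan, rose by 1.07 ± 0.12, while Sspn, sarcospan, fell by 6.66 (SE 0.22), with a measured level in 5 of 9 lines. Of 17 genes of mitochondrial transport and dynamics 9 were called higher and 1 lower, with a median of 0.38. The counts were 6 and 3 with quantile normalisation and 15 and 0 with median centring. Kif5c, a kinesin motor, rose by 2.87 ± 0.46, and Chchd6, a protein of the inner membrane folds, by 2.77 ± 0.25. Of 13 membrane-bound RING ligases 6 were called higher and 2 lower, with a median of 0.07. With median centring the counts were 11 and 2 and the median 0.73. Rnf103 and Trim13 rose by 1.48 ± 0.18 and 1.25 ± 0.14, and Znrf1 and Rnf145 fell by 1.93 (SE 0.11) and 1.19 (SE 0.12).

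**Figure D5:**
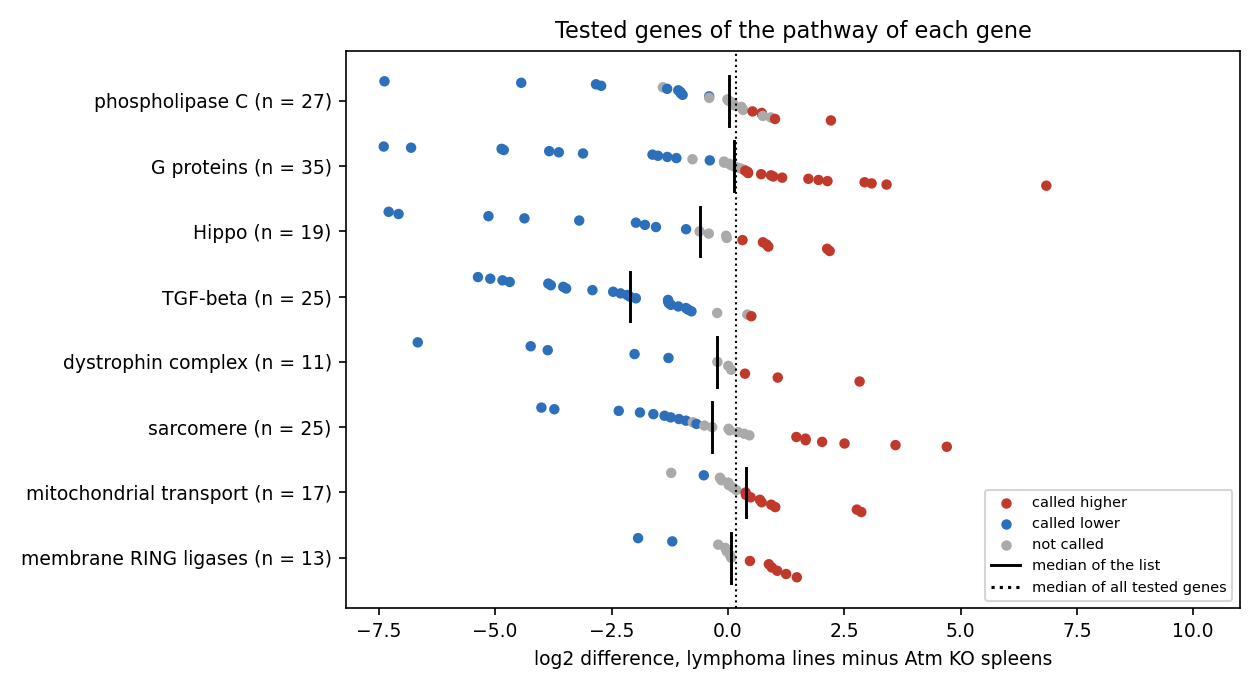
Log2 difference between lymphoma lines and Atm KO spleens for each tested gene of the 8 pathway lists, from the limma fit of all samples. Red and blue points were called higher and lower, bars are list medians and the dotted line is the median of all tested genes at 0.18; the TGF-beta list has 22 of 25 genes called lower.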

How the data were processed

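RNA from 9 lymphoma lines (10 arrays), 6 KO and 7 WT spleens was labelled with Cy3, per the labels' protocols. The authors deposited spot intensity values that Agilent Feature Extraction 10.7.1.1 had background-subtracted, per the file headers, and a table of log2 values centred per probe. Control spots and spots with outlier flags (1556 over all arrays) were left out, spots of a probe averaged, and log2 of the processed signal taken and the array's own 75th percentile subtracted. Probes were named by RefSeq accession (26690 of 41174 matched, 18217 genes), and the brightest probe stood for a gene. The 13743 genes well above background in at least 6 of 22 samples were tested with limma 3.58.1 in R 4.3.3 at an adjusted p of 0.05. Lines and spleens were fitted together with no covariate and spleens alone with sex. Correlations were computed with scipy 1.17.1 in Python 3.11.15. On simulated data with a known log2 change of 1 in 100 genes, the fit was checked for recovery and sign. The simulation gave lines and spleens the same spread, whereas the real lines were more variable, so it does not check the fit under that difference. Samples are separate animals or lines by their titles, and their number limits the precision.

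The members and lists were chosen with earlier results of these data known. Named are the 9 genes, the 3 genes most like each over the lines, fixed relatives, neighbours in the gene table, up to 2 called genes per list and direction without overlap, and exceptions stated beside them; some genes the rule gives are not reported here. Alternatives were median centring, quantile normalisation, normexp (offset 50, on median signals because the files hold no mean signal), the deposited table, no dim filter, the slide as a term, the slide of lines left out, each array of line 8 left out, all probes averaged, female spleens, and, added after seeing the data, line 8 left out or split and lines 4 and 5 averaged. Where a group was below background on every array, a fold is a bound against the lowest signal well above background.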

Additional observations from a re-analysis of the deposited data

Results flagged for a closer look

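Among the 27 combinations of the 9 genes with the 3 groups, 3 held a sample that stood apart from the rest of its group, and chance alone marks about 1 in 20. Plch2 in line 1 was 4.39, the lowest of the 9 lines, 2.10 below the next, which is 0.604 of the whole range of the lines. Gnaz in KO spleen 4 was -5.9, the lowest of the 6, and its gap of 0.347 was 0.634 of their range. Wwtr1 in the same spleen was -8.75, again the lowest, with a gap of 2.26 that was 0.788 of the range. Line 1 was well above background for Plch2, and the spleen for Gnaz but not for Wwtr1.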

How the results depend on the processing

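All 9 genes stayed higher in the lines under the 13 alternatives tried against each group of spleens. Of these 234 differences 22 moved by more than the SD over lines, 18 of them under normexp, whose added offset of 50 compresses dim levels (2.75 for Sntg2 and 9.02 for Plch2 against KO spleens), and 4 with all probes averaged, for Plch2 and Cd109. No genotype difference of the 9 was called under any alternative. With median centring 8691 genes were called higher and 2509 lower than in KO spleens, and 8546 and 2636 against WT spleens, 77.6% and 76.4% of calls being higher, against 59.0% and 56.7%. In that setting 88 pathway genes were called higher, 177 genes were lower in the genotype comparison, and 1 pair of members had an unadjusted p under 0.05. The genotype comparison called 146 higher and 108 lower with slide as a term, and 176 lower in female spleens only. The cause of these shifts was not tested. Rnf183 and Sntg2 had r = 0.60 (exact p = 0.0918) without the first array of line 8 and r = 0.64 (exact p = 0.0916) without the line. Signals near background limit what can be said of the spleens, and 9 lines limit the correlations.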
